A study of Mus musculus with 6 samples.

Results

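The integrin subunits described here are 10 genes chosen by name, *Itga1*, *Itga2*, *Itga3*, *Itga5*, *Itga6*, *Itgav*, *Itgb1*, *Itgb3*, *Itgb4* and *Itgb5*, of 34745 genes listed in the count tables, and 9 of the 10 had more than 500 counts summed over the libraries. They were measured by bulk RNA-seq in 889, a murine lung cancer cell line with a C57BL/6 background that was grown in DMEM with 10% FBS. Each group had 3 libraries and all cells carried lentiviral Cas9. The sg-con cells carried a control sgRNA designed against EGFP, and the sg-kiaa1522 cells carried an sgRNA against kiaa1522 (*C77080* in the mouse annotation), labelled as KIAA1522-downregulated, with the sgRNA used for sequencing not given in the sources used here. All libraries come from 1 line, and nothing in the labels says that the replicates were separate cultures, so the p-values measure the spread between these libraries, which may be technical.

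Integrins are receptors on the cell surface built from 1 α and 1 β subunit, and the pairing sets which matrix protein the cell can hold. The α3β1, α6β1 and α6β4 receptors bind laminin, α1β1 and α2β1 bind collagen, and α5β1, αvβ3 and αvβ5 bind proteins carrying the RGD tripeptide, such as fibronectin and vitronectin. Inside the cell talin and kindlin bind the β tail and switch the receptor on, and focal adhesion kinase and paxillin gather on it. α6β4 is the exception, since it is tied through plectin and dystonin to keratin filaments in the hemidesmosome of epithelial cells.

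Among the 9 subunits tested, *Itgb5* fell by 43.4%, *Itga5* was 36.7% higher and *Itgb4* was 31.2% higher in the libraries labelled sg-kiaa1522 than in the sg-con libraries, and the other 6 did not pass the test. These 3 of 9 were 33.3%, against 52.5% of all tested genes. The *Itgb4* call was lost in 9 of 14 other settings. *Itgb1*, *Itga3* and *Itga6*, which with *Itgb5* made up most of the subunit RNA, were at 0.96-fold, 0.94-fold and 1.10-fold of the sg-con level. *Itga1* had 1 count in all libraries together.

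The promoters of the 2 subunits that kept their call under every setting tried are printed here, *Itgb5* as the one that fell and *Itga5* as one that rose. The 250 bases before the RefSeq start are given 5′ to 3′ on the strand of the gene (GRCm38.p6, chr16:33829415-33829664 on the plus strand and chr15:103366792-103367041 on the minus strand), and capitals mark the GC box, GGGCGG on either strand, the letters bound by factors of the SP/KLF family.
Itgb5: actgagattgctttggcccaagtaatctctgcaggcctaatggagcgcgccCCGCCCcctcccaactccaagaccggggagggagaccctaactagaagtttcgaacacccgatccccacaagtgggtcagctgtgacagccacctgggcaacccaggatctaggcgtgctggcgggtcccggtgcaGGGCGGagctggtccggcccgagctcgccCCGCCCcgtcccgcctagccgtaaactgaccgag
Itga5: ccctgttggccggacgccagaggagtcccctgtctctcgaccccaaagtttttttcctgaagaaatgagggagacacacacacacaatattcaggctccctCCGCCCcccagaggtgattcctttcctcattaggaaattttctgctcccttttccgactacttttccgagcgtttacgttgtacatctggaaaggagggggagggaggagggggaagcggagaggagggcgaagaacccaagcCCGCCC
The *Itgb5* window holds 3 GC boxes and the *Itga5* window 2, so the letters are shared by the subunit that fell and one that rose. Their GC content was 65.2% and 55.6%, and the median over 32851 RefSeq windows of the same length was 52.4%. Of the 10 subunits, 7 had a RefSeq window (8 windows, since *Itga3* had 2), and *Itga6*, *Itgb3* and *Itgb4* had none. At least 1 GC box was found in 5 of the 8 windows (both of *Itga3* and those of *Itga5*, *Itgb1* and *Itgb5*), against 32.7% of all windows. The letters of AP-1 (TGANTCA), NF-kB and the CArG box, searched on both strands, were in none of the members' windows and in 6.75%, 7.25% and 1.47% of all windows. A match is a description of the letters and not a measured site.

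In the GRCm38 annotation the subunits lie on 6 chromosomes, and all are protein-coding. *Itga1* (chr13:114953096-115101964) and *Itga2* (chr13:114833081-114932100) are neighbours on the minus strand. *Itga6* (chr2:71745616-71858416) and *Itgav* (chr2:83724397-83806916) are on the plus strand of chromosome 2. *Itga3* (chr11:95044474-95076801, minus strand), *Itgb3* (chr11:104608000-104670476, plus strand) and *Itgb4* (chr11:115974709-116008412, plus strand) share chromosome 11. *Itga5* is at chr15:103344286-103366763 on the minus strand, *Itgb1* at chr8:128685654-128733200 and *Itgb5* at chr16:33829665-33949338, both on the plus strand. The α subunits have 26 to 30 exons in the transcript with the longest coding sequence, the β1, β3 and β5 genes 15 to 16, and *Itgb4*, whose long cytoplasmic tail sets it apart from other β subunits, 39.

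The libraries held 12220001 to 18609376 counts, and 10046 genes passed the count filter. Levels are given as CPM after TMM normalization (TMM CPM), the count relative to the scaled total of its library, or, where genes are compared with each other, as this value divided by the summed exon length in kb (FPKM). *C77080*, the gene targeted by the sgRNA, was at 126, 129 and 123 TMM CPM in sg-con and at 209, 202 and 215 in sg-kiaa1522, and so was higher in every library labelled as downregulated (log2 fold change 0.73, SE 0.0569, edgeR adjusted p = 9.1e-05). mRNA does not measure the protein or the edit, but the direction goes against the label, and every direction below is between libraries as labelled. The labelled cell type was only partly reflected in its markers. Summed epithelial markers were at 3790 to 4550 TMM CPM in sg-con and 3200 to 3480 in sg-kiaa1522, carried by the keratins *Krt8*, *Krt18* and *Krt19*. The 4 of the 7 that were tested were all called lower at any fold, against 26.3% of all tested genes, although *Krt18* was at the threshold and lost its call in most other fits. *Cdh1*, E-cadherin, had the largest fall of the 4, at 56.2 ± 4.92 TMM CPM in sg-con and 20.5 ± 1.14 in sg-kiaa1522 (log2 fold change -1.45, edgeR adjusted p = 5.1e-05). *Epcam* was at 0 in all libraries and *Cldn4* and *Cldn7* at no more than 1 count. Lung epithelial markers, among them surfactant proteins, summed to 44.8 to 99.2 TMM CPM in sg-con and 25.2 to 61.4 in sg-kiaa1522. Most of this came from the transcription factor gene *Nkx2-1* and from *Sftpb*. Under the count filter, *Scgb1a1* was at 16.7 TMM CPM in sg-con replicate 1 and at 1.52 to 4.4 in the other libraries. *Sftpc*, also under it, was at 6.28 in sg-con replicate 1 and at 0.656 to 2.69 in the others. *Nkx2-1* was at 55.4, 58.8 and 13.6 in sg-con and 10.8, 9.45 and 39.3 in sg-kiaa1522 (edgeR adjusted p = 0.21). *Sftpb* was at 16.9, 23.9 and 23.8 in sg-con and 12.2, 12.8 and 15.5 in sg-kiaa1522, and was called lower (log2 fold change -0.67, edgeR adjusted p = 0.012). In bulk samples fewer cells of a type and less RNA per cell cannot be told apart.

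By level per length, 4 subunits made up the upper tier. In sg-con, *Itgb1* was at 217 ± 18.3 FPKM (SD, n = 3), above 98.3% of the tested genes, followed by *Itgb5* at 96.5 ± 2.42, *Itga3* at 80.2 ± 4.65 and *Itga6* at 58.8 ± 11.0 FPKM. The ranges of these 4 did not overlap between neighbours in the order. Then came *Itgb3* at 14.2 ± 6.81, *Itga5* at 7.42 ± 0.341, *Itga2* at 4.08 ± 1.13, *Itgav* at 3.0 ± 1.23 and *Itgb4* at 0.794 ± 0.0828 FPKM, the last above only 1.14% of the tested genes. Here the ranges of *Itgb3* and *Itga5*, and of *Itga2* and *Itgav*, overlapped, so their order is not settled by 3 libraries. In sg-kiaa1522 *Itgb5* stood at 54.6 ± 3.47 FPKM, behind *Itga3* at 75.4 ± 4.62 and *Itga6* at 64.6 ± 5.43, and its range overlapped that of *Itga6*. The other subunits kept their places. The order within the upper tier rests on the length used, since *Itga6* has long exons that its main coding transcript leaves out: per longest protein-coding transcript, sg-con *Itga6* was at 123, *Itgb5* at 104 and *Itga3* at 94.2 FPKM.

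**Figure D1:**
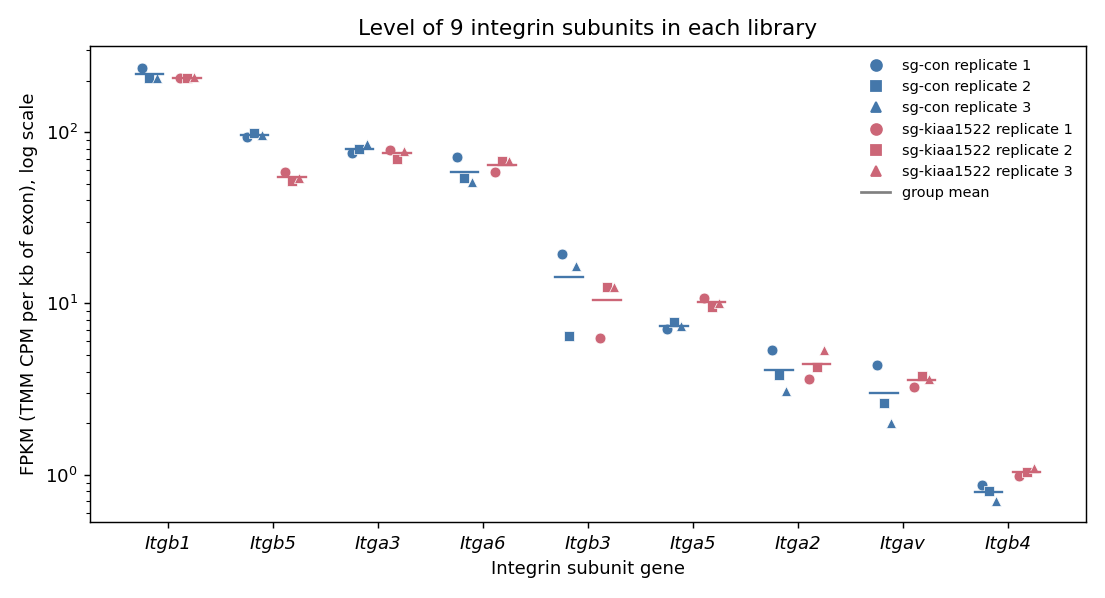
FPKM (TMM CPM per kb of summed exon, log axis) of the 9 tested integrin subunits in each of the 3 sg-con (blue) and 3 sg-kiaa1522 (red) libraries, ordered by sg-con level, with a line at each group mean. The *Itgb5* points separate by group, from 96.5 to 54.6 FPKM on average, while those of *Itgb3*, *Itga2* and *Itgav* spread within the groups.

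Whether the subunits differed between the groups was tested with edgeR's quasi-likelihood test on all 10046 genes. At the threshold given in the study's methods, an adjusted p no higher than 0.05 together with a log2 change of 1 or more in either direction (called the study's threshold here), edgeR called 0 of the 9 subunits, DESeq2 also called 0, and 3 had an unadjusted p below 0.05 in edgeR. Over all tested genes 7.08% were called at that threshold (4.34% lower and 2.74% higher). At any fold, edgeR called 1 subunit lower and 2 higher, 33.3% of 9, against 52.5% of all tested genes (26.3% lower and 26.3% higher). The median size of the log2 fold change was 0.25 for the 9 subunits and 0.32 for all tested genes. The median of the signed values was 0.11 for the subunits and -0.007 for all tested genes, with 4 subunits below 0 and 5 above. The groups did not overlap for the 3 called subunits, as for 61.7% of all tested genes.

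**Figure D2:**
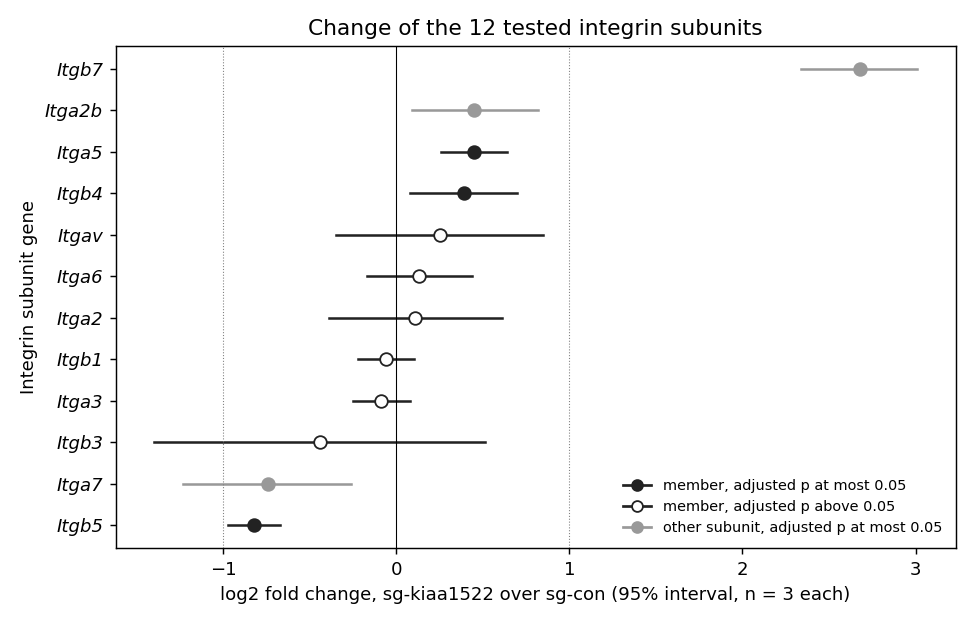
log2 fold change (sg-kiaa1522 over sg-con, x axis) with its 95% interval for the 9 tested members (black) and the other tested integrin subunits (grey), 3 libraries per group. Filled points have an edgeR adjusted p of at most 0.05, and dotted lines mark a log2 fold change of 1 in either direction. *Itgb5* at -0.82 has a short interval, and *Itgb3* at -0.44 has the widest, from -1.40 to 0.51.

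Of the subunits of receptors for RGD proteins, *Itgb5* was called lower and *Itga5* higher, and *Itgav*, *Itgb3* and *Itgb1* did not pass the test. *Itgb5*, which pairs with αv to bind vitronectin, was at 334, 351 and 343 TMM CPM in sg-con and at 208, 184 and 190 in sg-kiaa1522. All 3 sg-kiaa1522 libraries lay far below the lowest sg-con library, with log2 fold change -0.82 (SE 0.0654, 95% interval -0.97 to -0.67, edgeR adjusted p = 9.6e-05). Leaving out any 1 library gave -0.87 to -0.78. *Itga5*, which pairs with β1 as the classical fibronectin receptor, was at 35.1, 38.4 and 36.3 TMM CPM in sg-con and at 53.4, 47.3 and 49.6 in sg-kiaa1522. Each sg-kiaa1522 library was above each sg-con library, with log2 fold change 0.45 (SE 0.0831, interval 0.26 to 0.64, edgeR adjusted p = 0.0032), and 0.40 to 0.49 with any 1 library left out.

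*Itgav*, the α subunit of αvβ3 and αvβ5, was at 47.0, 28.2 and 21.4 TMM CPM in sg-con and at 35.2, 40.7 and 39.2 in sg-kiaa1522. The sg-con libraries lay on either side of the sg-kiaa1522 ones (log2 fold change 0.25, SE 0.257, interval -0.35 to 0.85, edgeR adjusted p = 0.44). Without sg-con replicate 1, the highest, the log2 fold change was 0.62 with edgeR adjusted p = 0.0089, so the call on *Itgav* turned on that library. Without sg-con replicate 3, the lowest, it was 0.03 (edgeR adjusted p = 0.93). *Itgb3*, the β subunit of the vitronectin receptor αvβ3, ranged more than any other member: 115, 38.2 and 97.9 TMM CPM in sg-con and 37.2, 73.4 and 73.0 in sg-kiaa1522. The second sg-con library was about level with the lowest sg-kiaa1522 library, and the difference of -0.44 (SE 0.409, edgeR adjusted p = 0.39) was within the spread. Its value with 1 library left out ran from -0.80 to -0.15.

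The abundant subunits of the laminin receptors did not pass the test. *Itga3*, the α subunit of α3β1, was at 433, 456 and 486 TMM CPM in sg-con and at 450, 400 and 442 in sg-kiaa1522. The groups overlapped (log2 fold change -0.09, SE 0.0709, interval -0.25 to 0.08, edgeR adjusted p = 0.32). Its value with any 1 library left out ran from -0.14 to -0.04. *Itga6*, which serves both α6β1 and α6β4, was at 645, 484 and 464 TMM CPM in sg-con and at 526, 612 and 610 in sg-kiaa1522. The first sg-con library was the highest of all and the other two were the lowest (log2 fold change 0.13, SE 0.132, interval -0.17 to 0.44, edgeR adjusted p = 0.42). Without sg-con replicate 1 the log2 fold change of *Itga6* was 0.29 with edgeR adjusted p = 0.019. Without sg-con replicate 3 it was 0.04 (edgeR adjusted p = 0.82).

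*Itgb4*, the hemidesmosome subunit, was low, with 107, 105 and 83 counts in sg-con and 84, 135 and 131 in sg-kiaa1522. In TMM CPM these were 6.11, 5.64 and 4.96 against 6.89, 7.33 and 7.68, so the groups did not overlap. The log2 fold change was 0.39 (SE 0.134, interval 0.08 to 0.70, edgeR adjusted p = 0.041). This call was lost with DESeq2 (adjusted p = 0.11) and in 5 of 6 fits with 1 library left out (edgeR adjusted p 0.031 to 0.12, passing only without sg-con replicate 1). *B230344G16Rik*, a lincRNA on the opposite strand, shares 537 exon bases with *Itgb4*, 7.66% of its exons, and had 15, 18 and 11 counts in sg-con and 24, 49 and 31 in sg-kiaa1522. Whether strand was used in counting is not given in the sources used here, so reads of the shared bases cannot be assigned, and their part in the *Itgb4* value was not tested. The ratio of *Itga6* to *Itgb4* FPKM was 73.8 ± 7.75 in sg-con and 62.0 ± 2.78 in sg-kiaa1522, per summed exon length. Per longest protein-coding transcript *Itga6* was at 123 and *Itgb4* at 0.897 FPKM in sg-con, so the size of the ratio depends on the length used.

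Of the collagen receptor subunits, *Itga1* had 0, 0 and 1 counts in sg-con and 0 in each sg-kiaa1522 library, 1 of 100560467 counts. The floor of 3 counts over all libraries corresponds to 0.0016 FPKM, so a level below that was not detectable at this depth. *Pelo*, a gene lying inside the *Itga1* span on the same strand, had 228 to 366 counts per library and shares no exon base with it. *Itga2*, the α subunit of α2β1, was at 37.9, 27.3 and 22 TMM CPM in sg-con and at 26.0, 30.3 and 37.9 in sg-kiaa1522. The highest library of each group was at the same level (log2 fold change 0.11, SE 0.215, interval -0.39 to 0.61, edgeR adjusted p = 0.68). Its sign was not settled, since it was -0.05 without sg-con replicate 3 and -0.04 without sg-kiaa1522 replicate 3.

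*Itgb1*, the β subunit that α1, α2, α3, α5 and α6 share, was the most abundant member and the steadiest among the sg-kiaa1522 libraries. It was at 971, 842 and 841 TMM CPM in sg-con and at 843, 848 and 858 in sg-kiaa1522. Apart from the first sg-con library all values lay within 841 to 858, and the log2 fold change was -0.06 (SE 0.0694, interval -0.22 to 0.10, edgeR adjusted p = 0.50).

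In the β pool the share of *Itgb1* was higher and that of *Itgb5* lower in every sg-kiaa1522 library than in any sg-con library. The FPKM of the 4 β members summed to 328 ± 21.1 in sg-con and 274 ± 2.61 in sg-kiaa1522. *Itgb1* made up 67.5%, 66.0% and 64.4% of that sum in sg-con and 75.9%, 76.1% and 75.8% in sg-kiaa1522. *Itgb5* made up 26.7%, 31.6% and 30.2% in sg-con and 21.5%, 19% and 19.3% in sg-kiaa1522. Both shares were separate by group, as the ratio of *Itgb1* to *Itgb5* FPKM was, at 2.25 ± 0.243 in sg-con and 3.82 ± 0.254 in sg-kiaa1522. The level of *Itgb1* itself overlapped between the groups, at 217 ± 18.3 FPKM in sg-con and 208 ± 1.8 in sg-kiaa1522. Its higher share therefore comes with the smaller sum and not with more *Itgb1* RNA. In TMM CPM, 61.7% of all tested genes were separate by group. *Itgb3* took 2.07% to 5.51% and overlapped between the groups. *Itgb4* stayed under 0.4% but was also separate by group, at 0.247%, 0.257% and 0.221% in sg-con and 0.36%, 0.383% and 0.395% in sg-kiaa1522. The α members summed to 154 ± 9.17 FPKM in sg-con and 158 ± 5.06 in sg-kiaa1522. *Itga3* and *Itga6* together dominated, at 45.1% to 57.1% and 34.5% to 43.6% over all libraries, and both overlapped between the groups. *Itga5* took 4.34%, 5.28% and 4.94% in sg-con and 6.99%, 6.16% and 6.13% in sg-kiaa1522. These shares are descriptions of RNA and carry the same values as the levels above, with no test of their own.

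**Figure D3:**
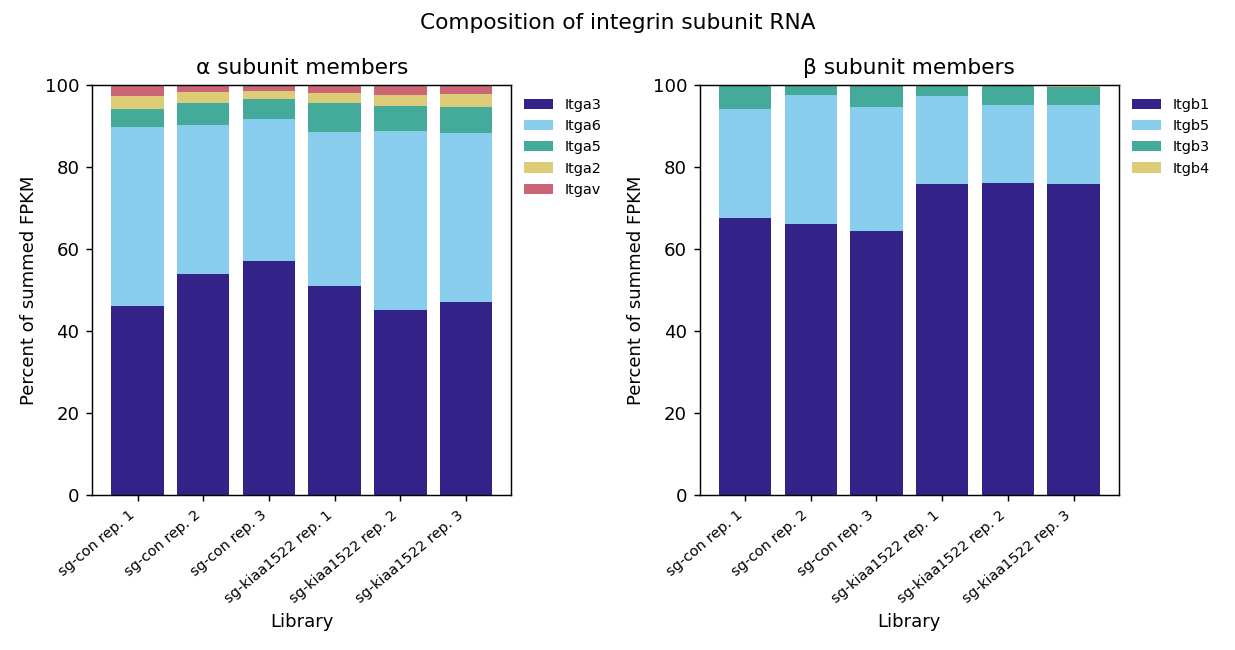
Percent of the summed FPKM of the α members (left) and of the β members (right) taken by each subunit in each library, with *Itga1* left out. *Itgb1* takes 64.4% to 67.5% of the β sum in sg-con and 75.8% to 76.1% in sg-kiaa1522, and *Itgb4*, under 0.4%, is hardly visible.

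The subunits did not vary equally among replicates. The coefficient of variation among the sg-con libraries was 48.0% for *Itgb3*, 41.1% for *Itgav*, 27.8% for *Itga2* and 18.8% for *Itga6*, against a median of 8.96% over all tested genes. It was 2.5% for *Itgb5*, 4.59% for *Itga5* and 5.79% for *Itga3*. Among the sg-kiaa1522 libraries it was 33.9% for *Itgb3*, 19.2% for *Itga2*, 7.45% for *Itgav* and 0.865% for *Itgb1*, with a median of 6.31% over all genes. The high values had an order: sg-con replicate 1 was the highest sg-con library for *Itga2*, *Itga6*, *Itgav*, *Itgb1*, *Itgb3* and *Itgb4* and the lowest for *Itga3*, *Itga5* and *Itgb5*. Of all tested genes 41.1% were highest and 42.2% lowest in that library. sg-kiaa1522 replicate 1 split the same genes the other way, being lowest for the same 6 and highest for the same 3. That library was the lowest of its group for 37.0% of all tested genes and the highest for 39.4%. In sg-con replicate 1 a gene's deviation from its group mean had a Spearman correlation of -0.472 with transcript GC content and 0.498 with exon length across 10024 genes, which are not independent replicates. In sg-kiaa1522 replicate 1 these were 0.333 and -0.266. Members high in sg-con replicate 1 had a transcript GC content of 44.2% (*Itgb1*) to 51.9% (*Itgav*), apart from *Itgb4* at 59.2%, and the 3 that were low there had 54.5% to 56.7%. The part of GC content and length in the spread of the subunits was not tested. With a correction for transcript GC content in each library, chosen after seeing the data, *Itgb5* was at -0.77. That correction moved *Itga3* from -0.09 to -0.02 and *Itgb1* from -0.06 to -0.10, with no call on either (edgeR adjusted p = 0.74 and 0.097).

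Of the 17 other integrin subunits listed in the files, 3 passed the count filter and edgeR called all 3 at any fold, where 52.5% of all tested genes were called. That count was 1 to 5 under other settings. *Itgb7*, a β subunit known from lymphocytes, had 43, 43 and 42 counts in sg-con and 165, 288 and 295 in sg-kiaa1522. It rose from 2.42 ± 0.103 to 15.5 ± 1.89 TMM CPM (log2 fold change 2.68, SE 0.144, edgeR adjusted p = 2.4e-05) and was past the study's threshold. Most of its counts came from the sg-kiaa1522 libraries, so it passed the count filter through the group where it was high. The α subunits that pair with β7 were near 0 in all libraries, *Itga4* with 0 to 2 counts and *Itgae* with 5 to 9. *Itga7*, a laminin receptor subunit known from muscle, had 208, 235 and 216 counts in sg-con and 126, 111 and 107 in sg-kiaa1522. It fell by 0.74 on the log2 scale (SE 0.208, edgeR adjusted p = 0.019), a call lost without sg-con replicate 2, sg-kiaa1522 replicate 2 or sg-kiaa1522 replicate 3 (edgeR adjusted p = 0.051, 0.067 and 0.069). Without sg-kiaa1522 replicate 1 the *Itga7* value was -1.02, past the study's threshold (edgeR adjusted p = 0.0017). *Itga2b*, the platelet αIIb subunit, had 100, 113 and 132 counts in sg-con and 115, 170 and 141 in sg-kiaa1522. Its log2 fold change was 0.45 (SE 0.156, edgeR adjusted p = 0.042). The call was lost with DESeq2 (adjusted p = 0.064), with the replicate number as a block (edgeR adjusted p = 0.088) and in 5 of 6 fits with 1 library left out.

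Markers of leukocytes, platelets and endothelium were low, and no muscle markers were counted. The 7 leukocyte markers summed to 1.99 to 3.77 TMM CPM in sg-con and 10.5 to 13.1 in sg-kiaa1522, carried by *Cd68* (1.19 ± 0.0509 and 11.2 ± 1.4, tested only because of its counts in the sg-kiaa1522 libraries). *Cd3e* was at 0 in all libraries and *Ptprc* had 14, 1 and 6 counts in sg-con and 1, 2 and 2 in sg-kiaa1522. *Coro1a*, under the count filter, was lower without overlap, with 19, 13 and 14 counts in sg-con and 5, 5 and 5 in sg-kiaa1522. The part of such cells in the *Itgb7* value was not tested. Platelet markers summed to at most 0.215 TMM CPM, with *Gp9* and *Gp1ba* at 0 in all libraries. Endothelial markers summed to 3.64 to 5.43 TMM CPM in sg-con and 9.38 to 11.7 in sg-kiaa1522, carried by *Vwf*, von Willebrand factor (3.22 ± 0.730 and 9.73 ± 1.12, tested for the same reason), while *Cdh5*, *Kdr* and *Tek* had no more than 5 counts in any library. The leukocyte subunits *Itgal*, *Itgam*, *Itgax* and *Itgb2* had no more than 5 counts in any library. The value of *Itgam* is the least certain, since its name is listed for 2 gene identifiers and only that of ENSMUSG00000030786 was used. *Gm49368*, on the same strand, shares 68.7% of the *Itgam* exon bases, and reads of shared bases cannot be assigned. *Itgb6* and *Itgb8*, the remaining β partners of αv, had 14, 11 and 12 against 1, 5 and 7 counts and 0, 0 and 0 against 6, 1 and 3 counts, sg-con first.

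The genes around the integrins were counted from lists of their roles. Of 42 activators and linkers (talins, kindlins, focal adhesion kinase, paxillin and the like), 37 were tested and edgeR called 7 lower and 10 higher at any fold, 45.9% against 52.5% of all tested genes, with a median log2 fold change of -0.09. At the study's threshold, which 7.08% of all tested genes passed, only *Kank1*, which links talin to the cell cortex, was called, at 3.17 ± 0.399 TMM CPM in sg-con and 6.99 ± 0.876 in sg-kiaa1522 (log2 fold change 1.14, SE 0.165, edgeR adjusted p = 0.0011). It had 506 counts in all and passed the count filter through the group where it was high and only with all libraries together, so its call could not be checked by leaving out a library. 5 others were picked after their values were seen. *Tln1*, the talin found in most cells, was at -0.10 (edgeR adjusted p = 0.18). *Tln2* and *Fermt2*, a talin and a kindlin, each fell by 0.74 on the log2 scale (edgeR adjusted p = 0.00016 and 0.00045), whereas *Pxn*, paxillin, rose by 0.54 and *Ptk2*, focal adhesion kinase, by 0.33 (edgeR adjusted p = 0.00043 and 0.0022).

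Of 16 inhibitors, membrane partners and trafficking genes, 15 were tested and 5 were called lower and 3 higher at any fold, 53.3% against 52.5% of all tested genes (4 or 5 called in all when any 1 library other than sg-con replicate 1 was left out, and 10 without that library), with a median of -0.10 and 0 called by edgeR at the study's threshold. The largest fall was that of *Cd47*, a membrane partner of β3 integrins (log2 fold change -0.44, edgeR adjusted p = 0.00098), and the largest rise that of *Slc3a2*, the CD98 heavy chain that binds β tails (0.50, edgeR adjusted p = 0.0074). Of the 5 genes of the hemidesmosome around α6β4, 2 were tested. *Dst*, dystonin, rose from 426 ± 95.8 to 658 ± 7.13 TMM CPM (log2 fold change 0.63, edgeR adjusted p = 0.0085), and *Plec*, plectin, was at -0.01. Counts per gene do not separate the transcripts of *Dst*, so a change in hemidesmosomes cannot be read from its rise. *Krt5* was at 0, and *Col17a1* and *Krt14* had no more than 3 counts in any library.

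Of 18 genes for RGD proteins and related ligands, 11 were tested, and edgeR called 4 lower and 3 higher at any fold, 63.6% against 52.5% of all tested genes, with a median of -0.16. At the study's threshold, which 7.08% of all tested genes passed, were *Ccn2*, a matricellular protein (189 to 52.0 TMM CPM, log2 fold change -1.87, edgeR adjusted p = 0.00015), *Npnt*, nephronectin (508 to 171, -1.57, edgeR adjusted p = 8.8e-05), and *Thbs2*, thrombospondin-2 (1.42 to 14.4, 3.32, edgeR adjusted p = 9.5e-05), which passed the count filter through the group where it was high. Of the other ligands *Spp1*, osteopontin, rose from 1970 to 3690 TMM CPM (log2 fold change 0.91, edgeR adjusted p = 0.00012) and *Ccn1*, a relative of *Ccn2*, fell from 1640 to 934 (-0.81, edgeR adjusted p = 6.8e-05). *Fn1*, fibronectin, was at -0.14 (edgeR adjusted p = 0.34), and *Vtn*, vitronectin, the ligand of αvβ5, had at most 2 counts in any library. These 4 were picked after their values were seen. Of 20 collagen and laminin genes, 10 were tested and 6 were called lower and 0 higher at any fold by edgeR, 60.0%, with a median of -0.44, where 26.3% of all tested genes were lower. *Col6a1* (2.31 ± 0.806 TMM CPM in sg-con and 5.72 ± 1.43 in sg-kiaa1522) and *Col6a2* (0.626 ± 0.3 and 1.77 ± 0.293), of type VI collagen, were under the count filter and higher without overlap, and *Col1a1* (6.98 ± 1.11 and 1.74 ± 0.225), also under it, was lower without overlap. *Lamb3*, a chain of laminin-332, fell from 292 to 85.2 TMM CPM (log2 fold change -1.78, edgeR adjusted p = 0.00023). *Col5a1*, of type V collagen, fell by 1.57 on the log2 scale and *Col1a2*, of type I collagen, from 422 to 153 TMM CPM, or by 1.46 (edgeR adjusted p = 4.8e-05 and 1.5e-05). *Lama3*, the α chain of laminin-332, had at most 1 count in any library. The type VI and type I collagen genes under the filter and *Lama3* were picked after their values were seen. Fibroblast markers, which go with collagen genes in tissue, summed to 41.8 to 44.5 TMM CPM in sg-con and 21.9 to 33.9 in sg-kiaa1522, carried by *Pdgfrb*, with *Thy1* at 0 and *Dcn* and *Lum* at no more than 2 counts. Their part in the collagen values was not tested.

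**Figure D4:**
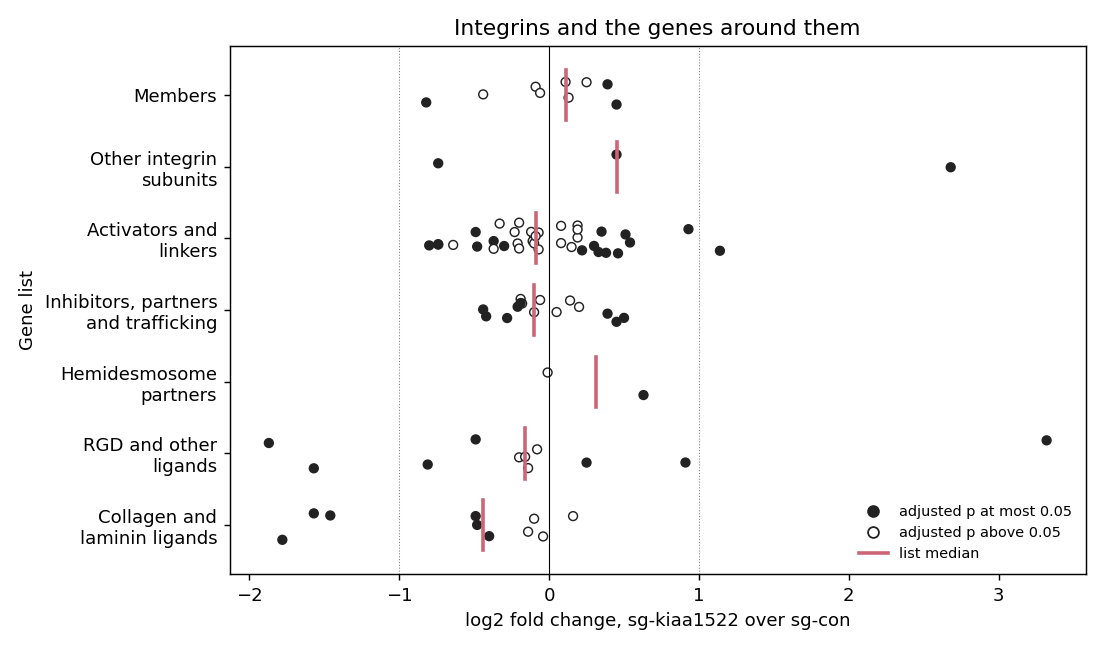
log2 fold change (sg-kiaa1522 over sg-con, x axis) of each tested gene of the integrin subunits and of 6 lists of related genes, with filled points for an edgeR adjusted p of at most 0.05, red lines at list medians and dotted lines at a log2 fold change of 1 in either direction. The subunits lie between -0.82 and 0.45, while the ligand lists reach from -1.87 to 3.32.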

How the data were processed

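The deposited files hold gene counts for 3 sg-con and 3 sg-kiaa1522 libraries. The authors trimmed reads and removed rRNA reads with Seqtk, mapped them to GRCm38 with HISAT2 2.0.4 and counted uniquely mapped fragments per gene with StringTie 1.3.0. The annotation release and strand setting are not given in the sources used here. Counting error and read placement limit low genes and genes that share exons.

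Counts were tested with edgeR 4.0.16 (R 4.3.3): genes with more than 500 counts summed over the libraries, TMM normalization, glmQLFit and glmQLFTest, no covariate, and Benjamini-Hochberg adjustment over 10046 genes. In simulated counts 92.9% of genes changed by a log2 fold of 1 were called. That simulation changed 99 genes by 1 and 98 by 2, of 10013 in the fit. It held no smaller changes, so it gives no such rate for changes of the members' size. FPKM used summed exon lengths from the GENCODE M21 annotation of GRCm38. The 95% intervals come from the model. The alternatives were DESeq2 1.42.0, RLE or library-size scaling, 2 other count filters, the replicate number as a block, leaving out each library, other gene lengths and, added after seeing the data, a GC content correction. The text names all members, every tested other subunit, markers by list and, from each related list, genes past the study's threshold or otherwise the largest rise and fall, with exceptions stated. The members, lists and tests were chosen with earlier results of these data known. Libraries of a group differed by more than counting error (chi-square per degree of freedom 12.3 to 30.7), so none was a repeat deposit.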

Additional observations from a re-analysis of the deposited data

How the results depend on the processing

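*C77080*, *Itgb5*, *Itga5* and *Itgb7* kept their call and direction under all 14 alternatives, and *Itga3* and *Itgb3* kept their direction without a call. 1 member was lower, and 0 passed the study's threshold, under each alternative. The number of members higher, 2 as reported, was 1 with DESeq2, with every gene of at least 1 count, with the replicate block and with the GC content correction and replicate block together, the call lost each time being *Itgb4*, and 1 to 4 with 1 library left out (4 without sg-con replicate 1). The signs that turned were those of *Itga2*, -0.05 to 0.34 with 1 library left out, and *Itgb1*, -0.10 to 0.00.

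Same-numbered libraries of the groups had correlations of -0.214, -0.0508 and -0.165 between their deviations. These values gave no sign that the numbers pair the libraries, and they cannot exclude it. Under the replicate block *Itgb5* was at -0.82 (edgeR adjusted p = 0.0018) and *Itga5* at 0.45 (0.021), while *Itgb4* and *Itga2b* lost their calls (0.10 and 0.088). In that fit 5 genes of the inhibitor and partner list were called in place of 8, also 5 with the GC content correction added. With 1 library left out that list gave 4 to 10, the activators and linkers 14 to 23, RGD ligands 5 to 8, collagens and laminins 6 to 7, and other subunits 1 to 3. With every gene of at least 1 count, or with filterByExpr, 5 other subunits and 9 collagens and laminins were called. Of the 10 members, 6 kept their rank by mean transcript length and 5 by longest protein-coding transcript. The causes were not tested, beyond the fewer libraries or the larger number of genes that a setting itself brings. Below the 3-count floor of 0.161 to 0.246 CPM per library no level could be set.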
